A study of Mus musculus with 9 samples.

Results

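The transcriptome of wild type mouse spermatids, haploid germ cells on their way to becoming sperm, was described from the 3 arrays with the genotype label Wip1+/+, out of 9 arrays in the series. Wip1 is the phosphatase encoded by Ppm1d, and the study also measured spermatids labelled Wip1-/- and Wip1-/- ATM +/-, with 3 arrays each, which were not compared here. Spermatid RNA was extracted with Trizol, treated with DNase, turned into biotin-labelled cRNA and hybridised to Illumina Mouse WG-6 v2.0 arrays. The labels give neither the strain, the age of the mice and the way the spermatids were isolated, nor whether the 3 arrays held RNA of separate animals, so each SD below is a spread over 3 arrays that may be wholly technical.

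Spermatids pass through a round stage with active transcription and an elongating stage in which histones are replaced, first by transition proteins and then by protamines, and the nucleus becomes silent. Many of their transcripts are made early, stored bound to protein, and translated later. The cells at the same time build the acrosome, an enzyme-filled vesicle on the nucleus, and the tail, whose microtubule core is wrapped by outer dense fibres and a fibrous sheath.

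The 45279 probes gave values for 19057 named genes, each read by its brightest probe. A gene was called detected where the scanner's detection p-value, which compares a probe with negative control beads, was under 0.05. By that rule 9011 genes, 47.3% of those on the array, were detected on all 3 arrays, 1852 on 1 or 2 arrays and 8194 on none. The median scanner signal was 108.6, 101.5 and 107.9 on replicates 1, 2 and 3, and between 37.9% and 39.8% of probes passed on each array. All signals below are the authors' processed intensities, on a linear scale with no unit, on which the highest undetected value lay at 127.5 to 132.6. The brightness of a probe depends on its sequence as well as on the amount of its transcript, so a rank below is a rank of signal, and the number of arrays limits its precision.

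The brightest named genes of wild type spermatids were of mixed function and included Odf1 and Smcp of the sperm tail, the germ cell enzyme Ldhc and the protamine Prm1. Odf1, the main protein of the outer dense fibres, gave signals of 49314, 44386 and 49314 and ranked 1. It was the brightest probe of the whole array on replicates 1 and 3, where its signal was the top value of the scale. Gsg1, a germ cell protein that binds the testis poly(A) polymerase, followed with 43684, 46932 and 46932. Ldhc, the lactate dehydrogenase of germ cells, gave 41563, 43201 and 43201, and Smcp, a cysteine-rich protein of the sperm mitochondrial capsule, gave 42104 on each array. Among named genes Smcp ranked 5, 5 and 6, and its equal values arose because its probe held the same place among all probes in the processed table, whose columns share 1 distribution.

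Prm1, the protamine that packs sperm DNA, ranked 7 with signals of 38399, 40951 and 44386, a mean of 41245 ± 3004 (SD, n = 3). Its second probe gave 37323, 38399 and 41563, so both probes of Prm1 were among the brightest on every array. Tnp1, the transition protein that precedes the protamines, ranked 40 with 29705, 23213 and 27685, a mean of 26868 ± 3322 (SD, n = 3). Tnp2, the other transition protein, ranked 669 with 5552, 5552 and 5254. All 3 of these spermatid markers lay in the brightest 10% of genes. Prm2, the second mouse protamine, had no probe under its name and was not analysed here.

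Rpl41, a ribosomal protein, ranked 3 with 45581, 43684 and 40288. Pgp, a phosphatase of glycolytic by-products, ranked 5 with 42525, 41563 and 42525. Ubb-ps, a pseudogene copy of the polyubiquitin gene Ubb, ranked 8 with 38733, 40288 and 39850. Its reads on the array cannot be told apart from those of Ubb, a near-identical sequence with no probe under its own name. Fabp9, a fatty acid binding protein of the sperm head, gave 40951, 37801 and 39476. Gpx4, the selenium enzyme that forms much of the sperm midpiece capsule, gave 37801, 36485 and 32372. H2al1e, a histone H2A variant of elongating spermatids with near-identical X-linked copies, gave 34343, 32372 and 37801, which the probe may collect over several copies. Phf7, a histone-binding ubiquitin ligase of spermatids, was the least even of the 20, with 28540, 39476 and 36485.

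Also in the first 20 were the dynein light chain gene Tcte3, the phosphatase inhibitor Ppp1r11, the metallothionein Mt1, the acyltransferase Plaat5, the chromodomain protein Morf4l1, the outer dense fibre protein Odf2, the sialyltransferase St6galnac2 and the tubulin Tuba3a. Their signals lay between 30334 and 39060. The SD of log2 signal over the 3 arrays had a median of 0.084 in these 20 genes and reached at most 0.244, in Phf7. The order near the end of the list was within this spread. Tuba3a at rank 20 gave 34021, 36894 and 30334, and Dbil5, a testis acyl-CoA binding protein at rank 21, gave 33115, 33115 and 33659, so their ranges overlapped. Ybx1 at rank 22, an mRNA-packaging protein, gave 39476, 31125 and 30561 and also overlapped them. Altogether 13 genes were among the 20 brightest on every array, and 26 were so on at least 1 array.

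**Figure D1:**
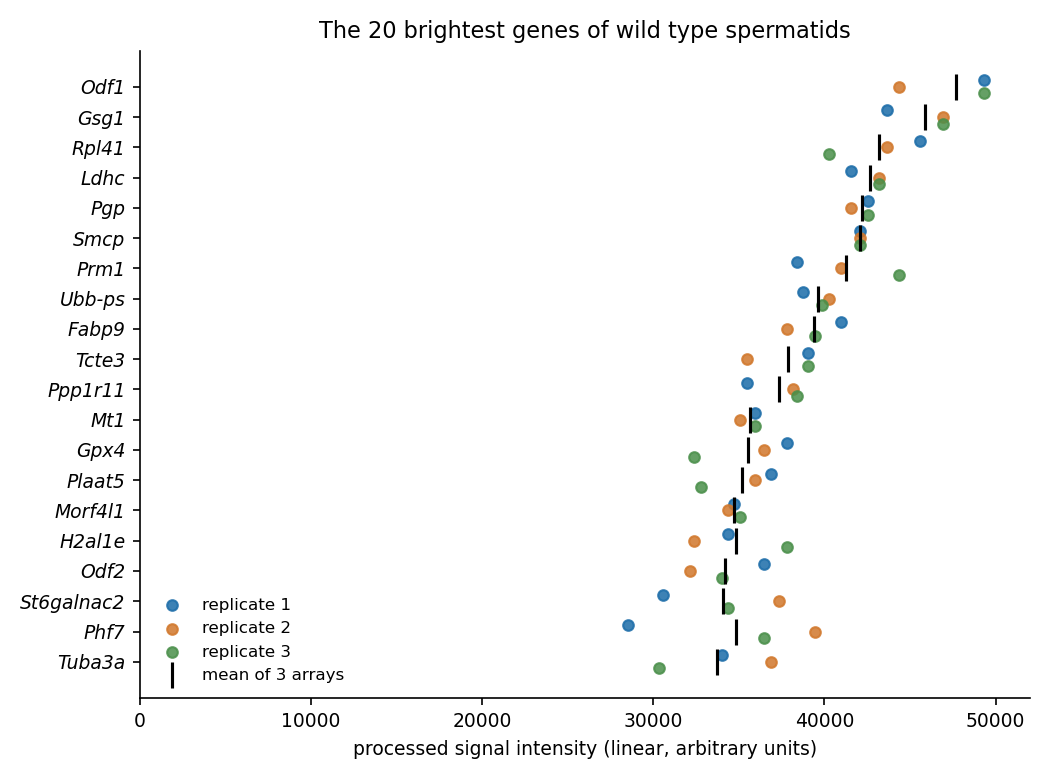
Processed signal intensity (horizontal axis, linear, no unit) of the 20 brightest named genes in the 3 wild type arrays (coloured points) with their mean (black bars). Odf1 reached 49314 on replicates 1 and 3, Smcp stood at 42104 on each array, and Phf7 spread from 28540 to 39476.

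The signal was concentrated in few genes. The 20 brightest genes held 4.80%, 4.76% and 4.82% of the summed signal of all genes on replicates 1, 2 and 3, the 100 brightest held 16.6%, 16.5% and 16.5%, and the 1000 brightest held 57.8%, 57.7% and 57.7%. Among detected genes the signal at the 10th, 50th and 90th percentile was 166, 481 and 4065. These shares include the background that the processed table keeps. Their closeness between arrays largely follows from that table, whose columns share 1 distribution. Names were missing for 4 of the 20 brightest probes and 21 of the 100 brightest probes, which are not described here.

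The genes of sperm structure were then read as lists of known members, against the 47.3% of all genes detected and the 9.94% of all genes in the brightest 10% by mean percentile, where 100 is the brightest gene. The lists follow textbook functions, and their members were not picked at random, so their counts describe the lists and carry no test. The median percentile over all genes was 49.1.

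The chromatin packaging list held 14 detected genes of 15 on the array, with 10 in the brightest 10%, and its median percentile was 96.5. Behind Prm1 and Tnp1, Hils1, a linker histone of elongating spermatids, gave 25452, 26863 and 24279. Tssk6, a kinase needed for histone replacement, gave 20071, 17598 and 17550, and H1f7, the other linker histone of elongating spermatids, gave 10412, 9186 and 10130. All of these lay above the 98th percentile. At the other end, H1f6, the testis linker histone made in spermatocytes, gave 151, 149 and 134, only just above the undetected values, and H2bc1, the testis histone H2B, was detected on 0 arrays with 97.3, 108 and 116.

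CREM, a transcription factor that binds cAMP response elements, drives many genes of round spermatids together with its coactivator FHL5. Crem gave 6131, 7789 and 6771 and Fhl5 gave 12265, 10961 and 11559, both in the brightest 10%. Crem has 7 probes, of which 1 more was bright, with 1933, 1472 and 2082, 3 lay between 141 and 246 and 2 were detected on 0 arrays, so its level depends on the probe. Of this list 10 genes of 15 were detected and 4 were in the brightest 10%, the other two being Sox5 and Rfx2, transcription factors of spermatids and of ciliated cells. Rfx2 gave 8528, 9829 and 8549, and Sox5 gave 10442, 10498 and 9399. Taf7l, a testis form of a general transcription factor subunit, was lower with 927, 890 and 1154. Tbpl1, a TATA-binding protein relative needed by spermatids, was detected on 0 arrays with 86.3, 83.9 and 91.9, and Taf4b likewise with 91.4, 85.5 and 96.7. The median percentile of the list was 80.1, below that of the structural lists.

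The promoters of 3 bright genes with a sequence near the cAMP response element TGACGTCA are shown, since Prm1 and Tnp1 are textbook targets of CREM and Gsg1 ranked 2 by signal. Each run holds the 120 bases before the RefSeq transcription start (GRCm38.p6, minus strand, 5′ to 3′), at chr16:10796824-10796943 for Prm1, chr1:73015900-73016019 for Tnp1 and chr6:135254337-135254456 for the first listed start of Gsg1. Capitals mark each stretch of 8 letters that differs from TGACGTCA at 1 letter at most.
Prm1: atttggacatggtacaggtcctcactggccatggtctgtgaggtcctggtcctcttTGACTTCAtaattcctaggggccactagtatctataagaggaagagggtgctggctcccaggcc
Tnp1: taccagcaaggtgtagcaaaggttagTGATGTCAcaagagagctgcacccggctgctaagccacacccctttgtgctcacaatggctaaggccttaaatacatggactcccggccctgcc
Gsg1: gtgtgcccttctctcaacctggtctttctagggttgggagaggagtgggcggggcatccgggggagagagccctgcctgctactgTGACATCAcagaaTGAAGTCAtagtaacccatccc
The marked stretch began 64 bases before the start in Prm1 and 94 bases before it in Tnp1. In Gsg1 the marked stretches began 35 and 22 bases before the start. Gsg1 has 2 listed starts, and no such match was found at the second. A match is a description of the letters, and binding was not measured here.

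Over the window from 250 bases before to 50 bases after the start, the exact letters TGACGTCA, which read the same on both strands, were in the promoters of 3.61% of the 100 brightest genes, of 3.84% of detected genes and of 2.70% of all genes on the array. A RefSeq promoter was at hand for 83 of the 100 brightest genes, 7369 of the detected genes and 15237 of all genes. With 1 letter allowed to differ, on both strands, a rule chosen after seeing the data, the share was 27.7% of the 100 brightest (Wilson 95% interval 19.2% to 38.2%), 17.2% of detected genes and 14.0% of all genes. The letters TATAAA, searched on both strands, were in 8.43% of the 100 brightest (Wilson 95% interval 4.15% to 16.4%), 8.94% of detected and 14.0% of all. The intervals treat genes as independent and cover counting error only. Each share counts genes, and some genes have several listed promoters. Counted per promoter, with 117, 9440 and 18719 promoters in the same 3 sets, the shares with 1 letter differing were 23.1%, 14.5% and 12.2%. For the exact letters TGACGTCA they were 2.56%, 3.24% and 2.36%, and for TATAAA 6.84%, 7.40% and 11.8%.

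Genes of mRNA storage and translation were nearly all detected, with 18 of 19 on the array and 9 in the brightest 10%. Ybx1 and its germ cell relative Ybx2 package stored mRNA, and Ybx2 gave 16947, 16050 and 19496. The 3 probes of Ybx1 spanned 89.58 percentile points, so its level depends on the probe. Ddx25, an RNA helicase of the chromatoid body, gave 21198, 20594 and 22193. Pabpc2, a testis poly(A) binding protein made from an intronless gene, gave 17965, 17796 and 16897 beside 12536, 10188 and 14351 for Pabpc1. Each of these was detected far above the undetected range on every array. Cpeb1, which controls polyadenylation in early germ cells, was low with 177, 203 and 139, and Eif4g3, a translation factor of male meiosis, was detected on 0 arrays.

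Most acrosome genes were bright. Of 19 on the array 18 were detected and 17 were in the brightest 10%, with a median percentile of 96.8. Spink2, an inhibitor of acrosomal proteases, gave 12764, 16168 and 15216, and Acrv1, a protein of the acrosomal matrix, gave 13587, 12127 and 12946. Acrbp, the binding protein of proacrosin, gave 11174, 10993 and 11715. Zpbp, a zona-binding protein, gave 10037, 10659 and 10428, and Lyzl6, a lysozyme-like protein of the sperm head, gave 7769, 9718 and 8538. The lowest detected member was Pick1, which helps vesicles to the acrosome, with 1286, 1238 and 1268, and Gopc, a Golgi protein of the same step, was detected on 0 arrays with 96.4, 103 and 103.

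The tail accessory structures had a median percentile of 99.1, with 15 of 15 genes detected and 14 in the brightest 10%. With each gene read by the mean of its probes the median was 97.2, below that of sperm glycolysis at 98.7 and chromatin packaging at 97.8, so the order of these lists depends on how probes are read. Beside Odf1, Smcp and Odf2, Oaz3, a testis antizyme, gave 30115, 30115 and 27501. Akap4, the main protein of the fibrous sheath and an X-linked gene, gave 21299, 18626 and 20508. The least bright members were Ropn1l, a sheath-anchored protein, with 245, 179 and 245, and Spag5, a spindle protein that binds ODF1, with 2025, 1888 and 2493.

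Sperm glycolysis, which runs on isoenzymes bound to the fibrous sheath, was detected throughout, with 11 of 11 genes and 8 in the brightest 10%. Gapdhs, the sperm glyceraldehyde phosphate dehydrogenase, gave 35074, 28874 and 25045. Pgk2, the retrogene that replaces X-linked Pgk1 in male germ cells, gave 21762, 30911 and 28874, while Pgk1 gave 321, 305 and 316. Pgam2 gave 15627, 15366 and 14316, and Tpi1 gave 10826, 10096 and 9676. Both are glycolytic enzymes shared with muscle or with all cells. The lowest members were Slc16a7, a monocarboxylate carrier, with 233, 165 and 248, and Pfkp, a platelet-type phosphofructokinase, with 1270, 1346 and 1127.

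Of the axoneme genes 17 of 21 were detected and 11 were in the brightest 10%. Tubb4b, a tubulin of cilia, gave 32793, 28150 and 31790, and Rsph1, a radial spoke protein, gave 20165, 20868 and 20346. Tekt1, a filament protein inside the doublet microtubules, gave 17207, 16538 and 14783. Tuba3a and Tuba3b encode near-identical tubulins, so their signals, which for Tuba3b were 19108, 20963 and 18697, may be shared. The members with the lowest percentiles, Spag17 and Rsph4a, a central pair and a radial spoke protein, were detected on 0 arrays and 1 array.

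Genes of the sperm membrane and of gamete fusion were detected in 18 of 21 cases, with 13 in the brightest 10%. Adam3, needed for sperm to pass the oviduct, gave 16465, 18348 and 18865, and Clgn, the chaperone that folds it, gave 13763, 15627 and 14839. Catsper2, a subunit of the sperm calcium channel, gave 13961, 12590 and 13245. These 3 genes lay above the 99th percentile. Adam32 and Adam5, other sperm ADAM proteins, gave 10459, 11642 and 12146 and 7483, 10765 and 11073. Adam2, a fertilin subunit, and Catsperg1, another channel subunit, were detected on 0 arrays, at 81.2, 89.7 and 85.1 and at 79.7, 79.0 and 91.7, close to the lowest values of the scale.

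Kinases and head-shaping genes showed the same pattern, with 16 of 20 detected and 13 in the brightest 10%. Actrt2 and Actl7a, actin-related proteins of the sperm head, gave 22586, 22757 and 19108 and 15317, 14708 and 13361. Spata6, needed to connect head and tail, gave 22270, 18697 and 21675. Capza3, a capping protein of spermatids, gave 10693, 12213 and 11271, and the kinase Tssk2 gave 10882, 9484 and 9586. Tssk1, its close relative, and Cntrob, a centriole protein, were detected on 0 arrays.

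**Figure D2:**
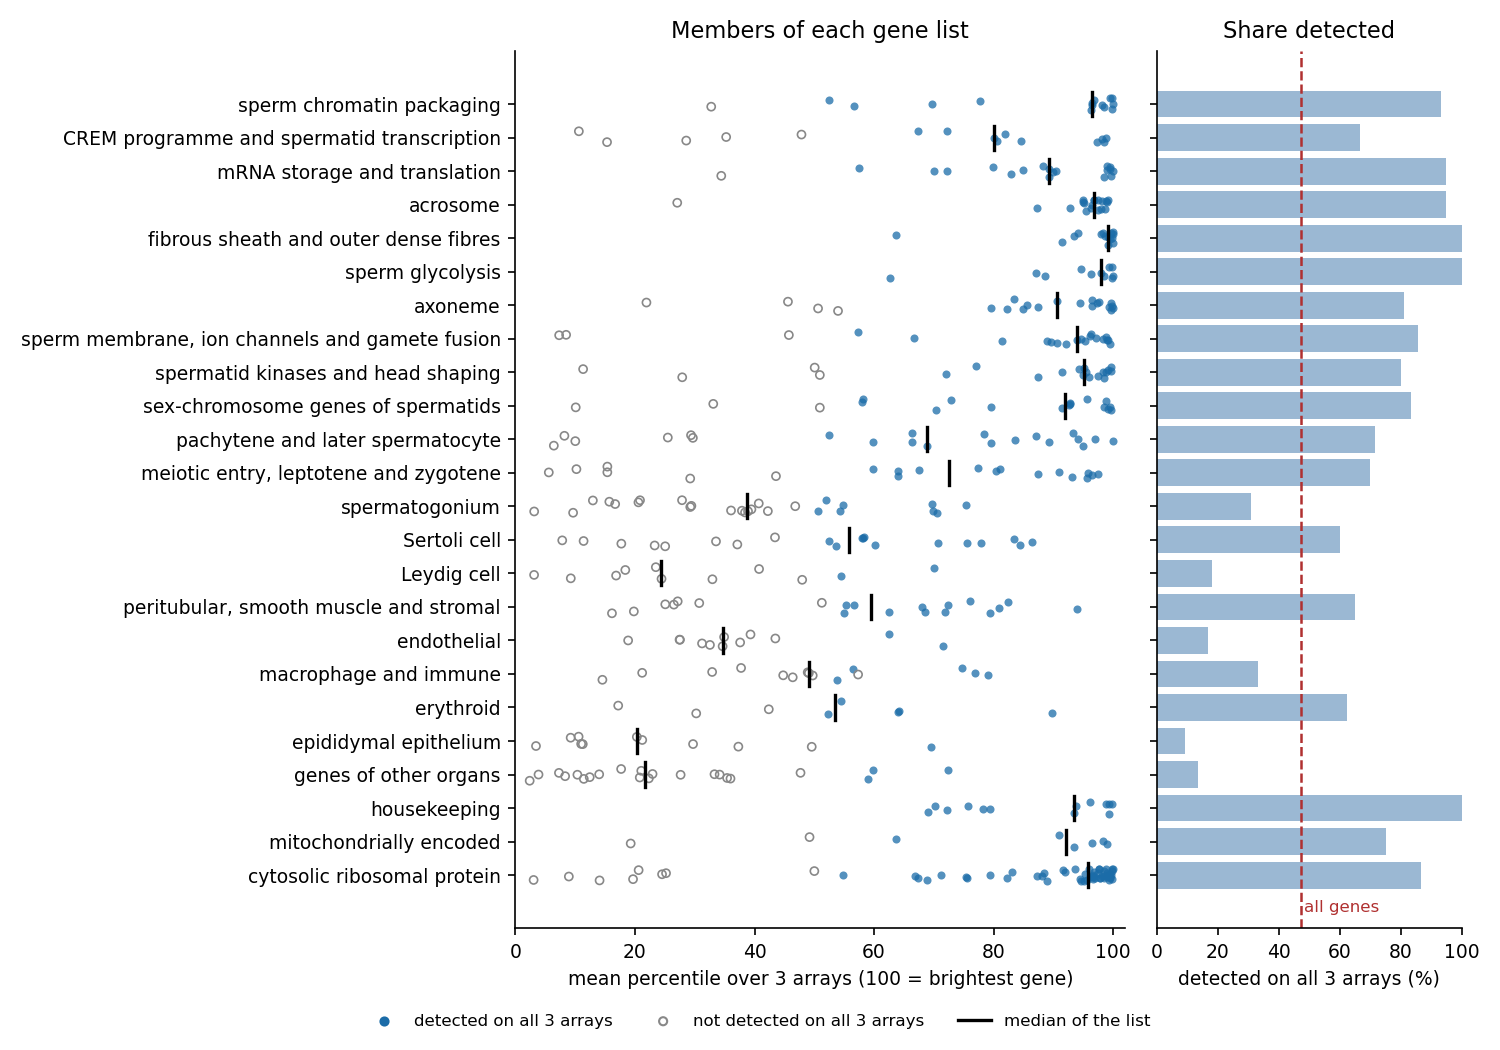
Left, mean percentile over the 3 wild type arrays (horizontal axis, 100 is the brightest gene) of each member of the gene lists, filled where detected on all 3 arrays, with the median of each list as a black bar. Right, percent of each list's members on the array that were detected on all 3 arrays, with 47.3% for all genes dashed. The tail, acrosome and glycolysis lists crowd above the 90th percentile, while the spermatogonial, Leydig, endothelial, epididymal and other-organ lists have medians under the 40th.

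Transcripts named for earlier germ cells were detected to different extents. In a bulk sample, fewer cells of a type and less RNA per cell cannot be told apart, and RNA carried over from the spermatocyte into the spermatid cannot be told apart from RNA of spermatocytes in the sample. Of genes of pachytene and later spermatocytes 15 of 21 were detected and 5 were in the brightest 10%, with a median percentile of 68.8. Hspa2, a chaperone made from meiosis on, ranked 23 with 28874, 34702 and 37323. Ccna1, the cyclin of late meiosis, gave 6521, 6521 and 5224, and its kinase activator Spdya gave 3419, 3851 and 4149. The kinases Aurka and Plk1, which act at the meiotic divisions, gave 3553, 2906 and 3290 and 2794, 2785 and 2856. Sycp3, a core component of meiotic chromosome axes, and Nek2, a kinase of the divisions, were detected on 0 arrays with 77.2, 95.1 and 78.6 and with 90.8, 79.9 and 77.6.

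Genes of meiotic entry and early prophase were detected in 14 of 20 cases with 6 in the brightest 10%. Syce3 and Syce1, of the central element of the synaptonemal complex, gave 8502, 6936 and 6530 and 5260, 3296 and 6380. Stag3, a meiotic cohesin subunit, gave 5090, 5916 and 5533. Spo11, the enzyme that starts recombination, gave 4234, 4653 and 4331, and Smc1b, a further cohesin subunit, gave 2993, 2431 and 2949. All of these lay far above the undetected range on every array. Stra8, the gene that opens meiosis, and Dmc1, the meiotic recombinase, were detected on 0 arrays, with 120, 93.2 and 99.9 and with 86.3, 96.4 and 91.4. Tex15 and Hormad1, which act in early prophase, had the lowest percentiles and were also detected on 0 arrays.

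Spermatogonial genes were detected in a smaller share than all genes, 30.8% against 47.3%. Of 26 genes 8 were detected on all 3 arrays, 0 were in the brightest 10%, and 4 were detected at the stricter detection p of 0.01, where 40.7% of all genes were. The summed signal of the whole list was 3767 to 3955 over the 3 arrays. Such sums include the background that the processed values keep, where the median probe signal was 111, and 18 of these genes were not detected on all 3 arrays. Sums of lists of different size are therefore not comparable. The highest were Rhox13, a homeobox gene of differentiating germ cells, with 463, 448 and 442, the receptor Kit with 285, 353 and 331, the ubiquitin hydrolase Uchl1 with 295, 346 and 294 and the transcription factor Sohlh1 with 300, 338 and 280. Markers of spermatogonial stem cells lay at the detection limit or under it. Id4 gave 150, 154 and 155 and Bcl6b gave 156, 136 and 137, detected on all 3 arrays. Zbtb16 and Gfra1 were each detected on 1 array, with 126, 145 and 100 and with 123, 137 and 95.6, and Eomes and Pax7 were detected on 0.

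Genes named for non-germ cells of the testis were, apart from Acta2, outside the brightest 10%, and expression of the same genes in germ cells cannot be told apart from other cells in the sample. Of Sertoli cell genes 12 of 20 were detected, a larger share than the 47.3% of all genes, with 0 in the brightest 10%. The median percentile of the list was 55.8, against 49.1 for all genes. At a detection p under 0.01 the count was 8, which is 40.0% against 40.7% of all genes. Espn, an actin-bundling protein of Sertoli junctions, gave 1256, 1120 and 1153, Aard gave 914, 1032 and 956, and the cystatin Cst9 gave 649, 880 and 1169. Cldn11 and Amhr2 were also detected on all 3 arrays, with 525, 496 and 625 and with 438, 475 and 452, as were Inha and Rhox5 nearer the limit. Of the 20 genes 8 were detected on 0 arrays. Sox9 gave 162, 139 and 147, while Fshr, the follicle-stimulating hormone receptor, with 94.1, 98.0 and 100, Gata4 with 103, 117 and 116, and Amh with 77.8, 79.3 and 93.5 were detected on 0 arrays. The summed Sertoli signal, background included, was 5894 to 6521.

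Leydig cells, which make testosterone, were represented by 2 of 11 genes. Insl3, a peptide hormone of Leydig cells, gave 354, 269 and 317, and Ptgds, a prostaglandin synthase, gave 153, 143 and 162. The steroid enzymes and carriers were not detected on all arrays. Star gave 87.6, 90.9 and 78.8, Cyp17a1 gave 118, 106 and 97.9, and Cyp11a1 passed on 2 arrays with 133, 139 and 121.

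Peritubular and stromal genes had the highest share detected of the non-germ cell lists, with 13 of 20, and 10 at a detection p under 0.01. Acta2, the smooth muscle actin of peritubular cells, was the 1 gene of the non-germ cell lists in the brightest 10%, with 3110, 3195 and 3116. Of its other probes 3 were detected and 2 were not, so its level depends on the probe. Igfbp7, Dcn, Bgn and Sparc, secreted proteins of matrix-forming cells, gave 837, 718 and 854, then 674, 687 and 737, 646, 576 and 624, and 479, 534 and 415. Col3a1, a fibrillar collagen, and Pdgfrb, a receptor of perivascular cells, were detected on 0 arrays. The summed signal, background included, was 8366 to 8586.

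Endothelial genes were detected in 2 of 12 cases, Egfl7 with 348, 344 and 346 and Vwf with 220, 203 and 195, while the defining Pecam1 and Cdh5 were detected on 0 arrays. Macrophage and immune genes were detected in 5 of 15 cases. H2-Ab1 and Cd74, of antigen presentation, gave 568, 612 and 611 and 461, 424 and 412, and C1qb, a complement subunit of macrophages, gave 564, 514 and 440, while Ptprc, the pan-leukocyte marker, was detected on 0 arrays.

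Erythroid genes were detected in 5 of 8 cases, 62.5% against 47.3% of all genes. At a detection p under 0.01 the count was 3, which is 37.5% against 40.7% of all genes. Hemgn was the highest with 1689, 1828 and 1563, and both its probes were detected, whereas the globin genes Hbb-bs and Hbb-bt gave 245, 220 and 207 and 200, 236 and 230. Hba-a1 lay near the limit with 147, 157 and 130. Epididymal epithelium was represented by 1 of 11 genes, Cst11 with 313, 285 and 313. Genes of other organs were detected in 3 of 22 cases, namely Krt10 of the skin, Myl2 of the heart and Cela2a of the pancreas, and Alb of the liver was detected on 0 arrays. These last lists stood at 9.09% and 13.6%, against 47.3% for all genes.

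Most genes used in every cell were detected. All 13 housekeeping genes on the array were detected and 7 were in the brightest 10%, with Eef1a1, a translation factor, at 30334, 31346 and 31346. Ldha, Ppia and Actb, a lactate dehydrogenase, a prolyl isomerase and the cytoplasmic actin, followed with percentiles over 98. Gapdh, at 587, 524 and 552, was not among the bright genes. Of the ribosomal protein genes 52 of 60 were detected and 38 were in the brightest 10%, from Rpl41 and Rps29, at 33659, 34021 and 29911, down to Rpl14 and Rps20, detected on 0 arrays. Ribosomal genes have many processed copies, so which copy a probe reads is uncertain.

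The genes of the study's own question ranged from undetected to the 85th percentile in wild type cells, with a list median of 62.6 against 49.1 for all genes. Ppm1d, which encodes Wip1, gave 727, 874 and 871 by its brightest probe, 1 of its 4 probes. Of the other 3, 1 passed on 2 arrays and 2 passed on 0, so this level rests on 1 probe. Atm, the kinase that starts the response to DNA breaks, gave 235, 262 and 241. H2ax, the histone that it phosphorylates, gave 909, 928 and 763. Brca1, a repair protein, was detected on 0 arrays with 101, 126 and 121, and Chek2, a checkpoint kinase, on 1 array with 111, 130 and 161. Among the DNA methyltransferase genes, Dnmt3l gave 1111, 1141 and 954, Dnmt1 gave 172, 222 and 238 and Dnmt3b gave 183, 209 and 209, while Dnmt3a was detected on 0 arrays with 86.7, 99.8 and 85.1. In all 6 of 9 genes were detected, 0 of them in the brightest 10%. Trp53 had no probe under its name.

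Genes of the X chromosome were detected in a smaller share than genes of each autosome, as shares with no test. Meiotic silencing of the X and Y continues in part into spermatids, and several multicopy X and Y families are expressed after meiosis. Of 710 X-linked genes 36.5% were detected and 4.51% were in the brightest 10%, against 47.7% and 10.1% of 18254 autosomal genes. The autosomes ranged from 40.9% on chromosome 7 to 56.8% on chromosome 12, so the X lay below each of them. Of 19 Y-linked genes 15 were detected and 8 were in the brightest 10%, among them the multicopy Sly, Ssty1 and Ssty2. The 100 brightest genes held the X-linked H2al1e, H2al1m and Akap4 and the Y-linked Gm20815. Sry, the testis-determining gene, was detected on 0 arrays.

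Named by function, 15 of 18 sex-chromosome genes of spermatids were detected and 10 were in the brightest 10%. Cypt3 and Cypt4, cysteine-rich proteins of the perinuclear theca, gave 17751, 16947 and 17059 and 12492, 14880 and 13567, although Cypt4 is placed on chromosome 9 in the gene table. Prdx4, a peroxiredoxin, gave 10001, 10845 and 12369, and Ssty2, a Y-linked multicopy gene, gave 8349, 10920 and 9703. The 2 probes of Ssty2 spanned 87.93 percentile points, so its level depends on the probe. The 2 genes with the lowest percentiles were Zfy2, a Y-linked zinc finger gene, with 91.7, 87.5 and 81.3, and Ube2a, an X-linked ubiquitin conjugating enzyme, with 109, 116 and 97.4. Chromosome 17, with 907 of the 19057 genes, held 11 of the 100 brightest, among them Pgp, Tcte3 and Ppp1r11, and chromosome 4, with 1125 genes, held 9.

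**Figure D3:**
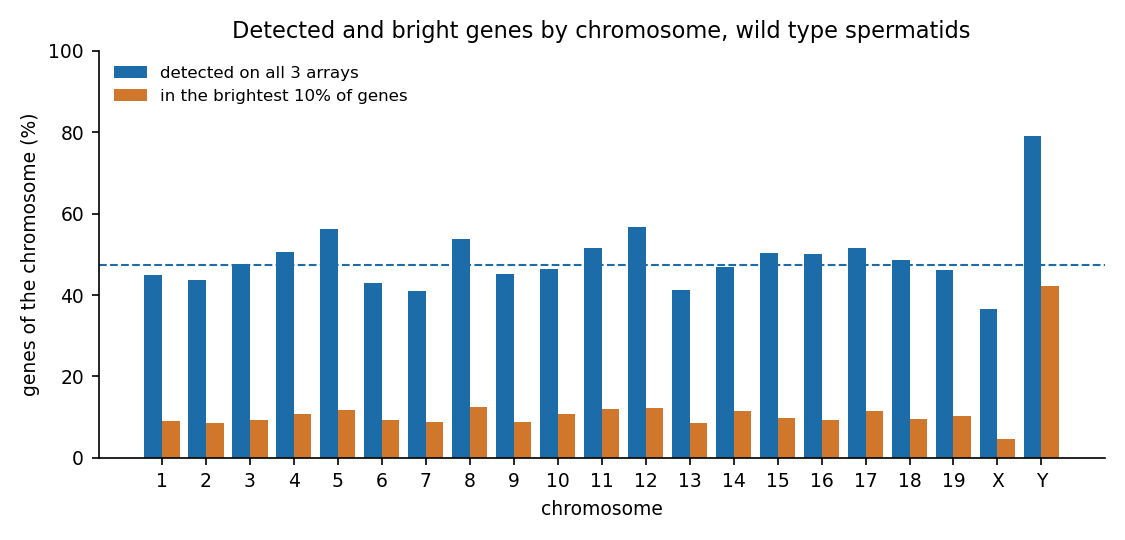
Percent of the named genes of each chromosome that were detected on all 3 wild type arrays (blue) or in the brightest 10% of genes (orange), with 47.3% for all genes dashed. The X stands at 36.5% and 4.51%, and the Y, with 19 genes, at 78.9% and 42.1%.

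The 3 arrays resembled each other closely. On replicates 1 and 3 the median shift from the other arrays was larger for the X, the Y and the mitochondrial genome than for any autosome. The median absolute log2 difference of detected genes between 2 arrays was 0.1354 to 0.1437. That describes single genes and not a median over a chromosome, so the shifts are set against the autosomal medians below. Across detected genes, which are not independent replicates, Pearson's r of log2 signal was 0.9914 to 0.9925 between pairs of arrays, and the median SD of log2 was 0.1205. Both rest on processed values that share 1 distribution and keep background. After background correction and normalization by neqc on 9 arrays the median SD was 0.1601. An SD over 0.5 was found in 37 detected genes. The largest was that of Sly, a multicopy Y-linked gene that regulates the sex chromosomes in spermatids, with 2381, 1646 and 5779 and an SD of 0.93. Rpl7a, a ribosomal protein, followed with 3033, 1070 and 1313. The X-linked Gm14594 was next with 1929, 1778 and 4645, and then Cypt1, an X-linked theca gene, with 7789, 2802 and 4316. The mitochondrially encoded genes among the 10 with the largest SD were COX2 with 2618, 2064 and 5131 and ATP6 with 1691, 1466 and 3455.

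The other genes among these 10 were the X-linked Fsip2l and Gm5168, the dehydrogenase subunit Dld and the amylase Amy2a5. Of these 10 genes 7 were highest on replicate 3. Amy2a5 gave 1286, 1986 and 3062, and Fsip2l gave 214, 144 and 365. Of the 100 detected genes with the largest SD, 82 were highest on replicate 3, 11 on replicate 1 and 7 on replicate 2, whereas 28.4% of all detected genes were highest on replicate 3. Among the same 100 genes 20 were X-linked, 1 was Y-linked and 3 were mitochondrially encoded, so most were none of these. The X held 2.87% of detected genes. Of detected X-linked genes 47.9% were highest on replicate 3.

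Replicate 3 minus the mean of the other two arrays, as a median of log2 over detected genes, was 0.083 for the X, 0.295 for the Y and 0.611 for the 6 detected mitochondrial genes. On the autosomes it lay between -0.06 and 0.006. Replicate 1 minus the others was -0.13 for the X, -0.29 for the Y and -0.32 for the mitochondrial genes, against -0.031 to 0.036 on the autosomes. Replicate 2 minus the others was 0.02 for the X, -0.066 for the Y and -0.426 for the mitochondrial genes, so replicate 2 was the lowest in the mitochondrial genes. Of the 100 detected genes with the largest SD, 58 were lowest on replicate 2, 38 on replicate 1 and 4 on replicate 3. These values come from 3 arrays and carry no test, and what sets the arrays apart was not tested. The percent of X-linked genes detected was 41.8%, 39.9% and 44.2% on replicates 1, 2 and 3, and the lowest share of an autosome on the same single arrays was 45.5%, 44.7% and 46.4%.

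**Figure D4:**
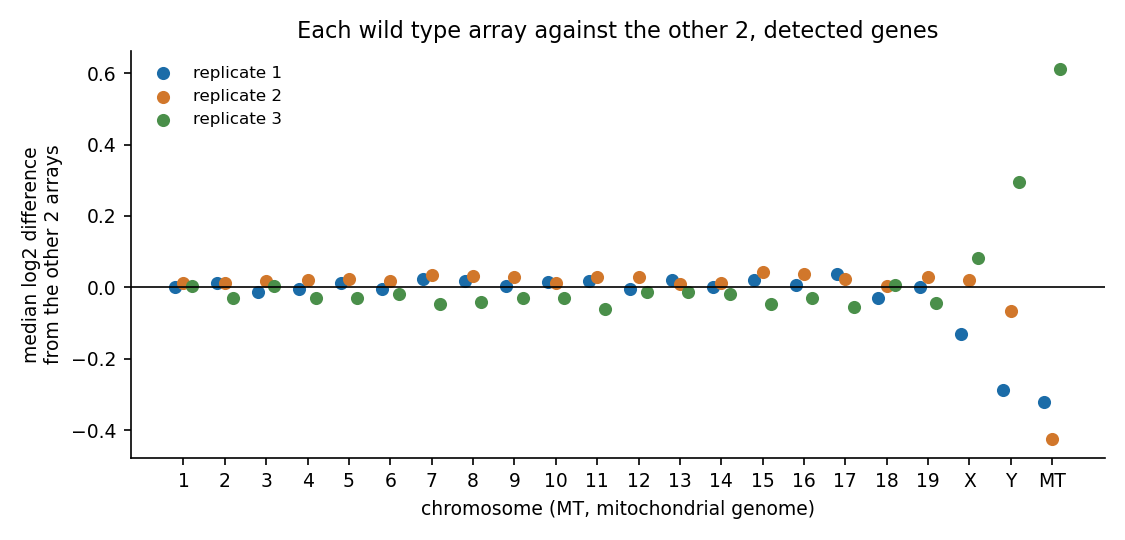
Median over detected genes of log2 signal on each wild type array minus the mean of the other two (vertical axis), by chromosome. Autosomal medians lie near 0, while replicate 3 stands at 0.083 on the X, 0.295 on the Y and 0.611 for mitochondrial genes (MT).

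Probes of one gene often disagreed. Of 9172 genes with several probes, 1737 had each probe detected, 3556 had some detected and some not, and 3879 had none detected. The range of percentile over the probes of a gene had a median of 25.3 points and exceeded 50 points in 1806 genes. This takes in genes with no detected probe, whose percentiles reflect noise, and over detected probes alone the median range was 7.22 points in 2955 genes. It was widest in Zc3h14, an RNA-binding protein, whose probes ran from 8742, 10826 and 9930 down to 76.3, 74.7 and 80.1, over 95.96 points. The next were Car2, a carbonic anhydrase, with 95.22 points, Letm2 with 94.14, the actin-binding Tmsb4x with 93.79 and Cyhr1 with 93.66. In each of these 5 genes 1 probe or more was detected on all arrays and at least 1 was detected on 0, so a gene without a detected probe in the lists above may still have a transcript that its probe does not read.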

How the data were processed

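Intensity values of 9 Illumina Mouse WG-6 v2.0 arrays were deposited in 2 tables. The first, per the file headers, holds unnormalized scanner signal intensity beside a detection p-value for each probe and array. The second holds the authors' processed intensity, on a linear scale. Its columns share 1 distribution and rank probes as the scanner signals do (rank correlation 1), which reads as quantile normalization with background kept. The scanner software and this normalization step were not given in the sources used here. The processed table was used because 1696 probes, 1592 of them with a gene symbol, are blank in the scanner table as given. Of these, 743 counted as detected, lying above every undetected probe of each array. Detection p-value cells that had lost their decimal point, 39, 154 and 49 on replicates 1, 2 and 3 of wild type, were divided by 1000.

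The platform annotation gave 34885 probes 1 symbol, 18 several and 10376 none. Of these, 34807 were matched by Entrez identifier to RefSeq genes (GRCm38.p6), with 0 symbols changed. A gene was read by its probe of highest mean log2 signal over the 3 wild type arrays and ranked per array. The files held 0 columns of sample values left unused. No test between groups was made. Promoters are RefSeq's. Tools were Python 3.11.15 with pandas 2.3.3 and numpy 2.4.6, and R 4.3.3 with limma 3.58.1 for the neqc alternative (offset 16). Detection calls, the reading of blank probes and the ranking were tested on simulated data in which each probe stood for its own gene. List counts and the choice of the brightest probe were not tested in this way. The members, gene lists and questions were chosen with earlier results of these data known. Named were the markers and study genes, the 20 brightest genes and those next to rank 20, up to 5 highest and 2 lowest members of each list, the 10 most variable genes and the 5 with the widest probe ranges. Other named genes, such as Pfkp, Sry and several markers of other cells, were chosen after their values were seen. Alternatives used other detection thresholds, the scanner table, neqc, the mean of all probes and each replicate left out.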

Additional observations from a re-analysis of the deposited data

How the results depend on the processing

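No paired analysis was possible because no result comes from a test between groups. Detected genes numbered 7756 at a detection p under 0.01, 9851 on at least 2 arrays, 8730 without blank probes, 9021 by any probe and 9230 to 9396 with 1 replicate left out. Of the 20 brightest genes 19 remained on the scanner table and under neqc, where St6galnac2, then read by another probe, fell to rank 5002. Both keep the order of probes within an array, so little but the blank probes could alter this list. When all probes of a gene were averaged 10 remained, with Tcte3 at rank 1138 and Odf2 at 813. With 1 replicate left out 17 to 18 remained. The median SD of log2 was 0.1601 under neqc on 9 arrays, 0.1628 under neqc on 3, 0.1116 with no filter on detection, and 0.0959 to 0.1016 with 1 replicate left out. The value with no filter takes in genes not detected on all 3 arrays, whose median was 0.1041. An SD over 2 arrays has a lower median than one over 3 at equal spread, so the values with 1 replicate left out cannot show dependence on a replicate. Over detected probes only, 0 genes had a range above 50 points, which follows from construction because detected probes fill only the upper part of the scale. At a detection p under 0.01 the X stood at 29.3% and the Y at 68.4%, beside 41.1% of autosomal genes. At that threshold the Sertoli list (40.0%) and the erythroid list (37.5%) fell under the 40.7% of all genes. In comparisons added after seeing the data, replicate 3 kept its higher X, Y and mitochondrial medians on the scanner signal, at 0.081, 0.175 and 0.589. Of the other list and chromosome values 30 moved by more than the spread between arrays and 165 did not. The list medians at a detection p under 0.01 could not move, since they do not use detection. Those under neqc nearly repeat those of the scanner table, since both rank the probes of an array alike. The 165 are therefore not all separate checks. Protein length and composition, planned for the brightest genes, were not run. Detection near the limit of 127.5 to 132.6 rests on few units of signal.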

Other observations

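Several bright genes on no list above were chosen after their values were seen. Acot7, an acyl-CoA thioesterase, ranked 26 with 31125, 28706 and 34702. Cabs1, a calcium-binding protein of elongating spermatids and the sperm tail, gave 26863, 33659 and 33115. Gstm5, a glutathione transferase, gave 31790, 29072 and 24134, and Hspb9, a small heat shock protein of the testis, gave 29072, 27946 and 25165. Gstm5 was lowest on replicate 3 and Cabs1 on replicate 1, so their order differed between arrays. Gtsf1l, a relative of a small RNA pathway protein, gave 24668, 30561 and 29705. Dynll1, a dynein light chain, gave 29541, 23602 and 27176. Catsperz, a subunit of the sperm calcium channel, gave 28150, 26672 and 24792, above the 99th percentile on the mean of the arrays. Spata19, a mitochondrial protein of the sperm midpiece, was uneven, with 18133 on replicate 1 beside 32793 and 32129. Of the 100 brightest genes 29 were on any of the 26 lists, and 11 had only a clone name.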
